A study of Mus musculus with 3 samples.

Results

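The 10 genes described here encode chaperones, folding enzymes and stress sensors of the endoplasmic reticulum (ER): Hspa5, Hsp90b1, Calr, Pdia3, Pdia4, Dnajb9, Sdf2l1, Xbp1, Atf6 and Ern1. They were chosen by name, for these roles, and are 10 of the 21779 nuclear protein-coding genes of the RefSeq annotation. For each, every peak of the HIF1α list was taken whose centre lay inside the gene or within 50 kb of either end. This gave 23 of the 17289 peaks. The peaks come from chromatin immunoprecipitation and sequencing (ChIP-seq) of wild-type hearts of Black-Swiss mouse embryos, dissected at E12.5, the label for the embryonic day. HIF1α was precipitated in 2 pulldowns, and 1 input library without antibody served both. No group was treated and none carried an allele other than wild type. Whether the pulldowns came from separate pools of embryos is not given in the sources used here. A peak list holds no expression levels, so the tissue was not checked against marker genes.

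Each peak has a position on the mm10 build, a whole-number score set by the authors, and a number of calls. The last number counts the calls that were merged into the peak, 1 or 2. Whether 2 calls always stand for a call in each pulldown is not stated, and a single call is not marked with its pulldown. The values below therefore come without a replicate error, and the read depth behind them is unknown. In the whole list, 11.5% of peaks had 2 calls, with a median score of 4, while those of 1 call had a median of 2. The score was used only to rank peaks within the list.

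Proteins that enter the secretory pathway fold in the ER, where BiP (Hspa5) and GRP94 (Hsp90b1) hold unfolded chains, calreticulin and ERp57 handle glycoproteins, and disulfide isomerases form and exchange disulfide bonds. When unfolded protein accumulates, the membrane sensors ATF6, IRE1 (Ern1) and PERK (Eif2ak3) start the unfolded protein response. IRE1 splices the messenger RNA of Xbp1, and the resulting transcription factor acts with ATF6 on genes of chaperones and of ER-associated degradation. HIF1α is the oxygen-regulated subunit of a dimer that binds DNA at the short core ACGTG or GCGTG. Disulfide formation in the ER passes electrons to oxygen, and low oxygen is among the known triggers of ER stress.

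The promoters of 3 of these genes are shown first because they hold the ER stress element, the site through which ATF6 and the CCAAT-binding factor NF-Y act. None of the 3 held the centre of a peak, and only 5.05% of all promoters, those of noncoding genes included, did. The promoter of Sdf2l1 follows because the only peak of that gene lay upstream of it, beyond the bases shown. The core marked in Sdf2l1 is therefore not in the peak, whose own sequence was not available. Each sequence gives the 250 bases before the transcription start, 5′ to 3′ in the direction of transcription, from RefSeq (GRCm38.p6, the build of mm10). Capitals mark the HIF core (ACGTG or GCGTG, either strand) and, in the first 3, both parts of the ER stress element (CCAAT followed after 9 bases by CCACG, either strand).
Hspa5 (chr2:34771840-34772089, plus strand): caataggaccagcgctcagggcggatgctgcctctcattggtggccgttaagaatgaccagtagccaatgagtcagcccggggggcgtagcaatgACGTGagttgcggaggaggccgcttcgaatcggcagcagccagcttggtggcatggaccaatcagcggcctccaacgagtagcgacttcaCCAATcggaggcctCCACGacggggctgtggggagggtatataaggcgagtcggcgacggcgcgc
Hsp90b1 (chr10:86705445-86705694, minus strand): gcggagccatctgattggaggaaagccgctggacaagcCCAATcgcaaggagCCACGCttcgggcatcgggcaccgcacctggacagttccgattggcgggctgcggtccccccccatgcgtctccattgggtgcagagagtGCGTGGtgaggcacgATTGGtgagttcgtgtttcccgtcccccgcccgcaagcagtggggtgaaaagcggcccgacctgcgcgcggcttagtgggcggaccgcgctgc
Calr (chr8:84846932-84847181, minus strand): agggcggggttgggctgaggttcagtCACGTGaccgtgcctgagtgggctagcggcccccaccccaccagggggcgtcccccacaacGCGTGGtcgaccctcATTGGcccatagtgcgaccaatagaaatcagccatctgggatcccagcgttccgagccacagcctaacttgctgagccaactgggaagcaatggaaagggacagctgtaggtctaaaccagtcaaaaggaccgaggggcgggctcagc
Sdf2l1 (chr16:17132384-17132633, minus strand): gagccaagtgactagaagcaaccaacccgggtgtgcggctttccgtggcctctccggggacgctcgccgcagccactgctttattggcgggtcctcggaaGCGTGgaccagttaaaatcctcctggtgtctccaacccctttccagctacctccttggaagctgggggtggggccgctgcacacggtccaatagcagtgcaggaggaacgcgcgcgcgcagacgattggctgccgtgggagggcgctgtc

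The promoter table held 9 of the 10 genes and lacked Atf6. The ER stress element was found in 3 of the 9 windows, once in Hspa5, once in Calr and 2 times in Hsp90b1. Of all 32851 promoter windows of this length (several for a gene with several starts, noncoding genes included), 37 (0.113%) held it. Its shorter form, ATTGG followed after 1 base by CCACG, was in none of the 9 and in 10 of all windows (0.0304%). The HIF core was found in 7 of the 9 windows, all but Pdia4 and Xbp1, against 38.6% of all windows. Motif shares over the windows of protein-coding genes alone were not counted. In both elements of Hsp90b1 and in that of Calr, the CCACG part overlapped a HIF core read on the opposite strand. The letters CCACG give such a core whenever the next base is C or T, so the overlap rests on a single further base. The single HIF core of Hspa5 was apart from its ER stress element and lay within TGACGTG, 151 to 157 bases before the start. TGACGTG is known as the unfolded protein response element, and 1.65% of all windows held it. The palindrome CACGTG, which carries a HIF core on each strand, was found in Calr and Dnajb9 and in 6.02% of all windows.

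None of the 9 promoter windows held the centre of a peak. Over all windows the share was 5.05%. The HIF core was present in 76.6% of the 627 windows that held the centre of a peak of 2 calls. Base composition moves with these shares: the mean G+C content was 53.2% over all windows, 62.9% over windows with a peak of 2 calls and 64.0% over the 9 windows here. Its part in the motif counts was not tested. A match to these letters is a description of the sequence, not a measured site.

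Each of the 10 genes had between 1 and 6 peaks in its window, and the median over all protein-coding genes was 1. Of the 23 peaks, 6 (26.1%) had 2 calls and 17 had 1. The scores were 2 for 6 peaks, 3 for 10, 4 for 5, and 7 and 8 for 1 peak each. The highest, 8, lay in the window of Calr, and the next, 7, in that of Hsp90b1. Scores of 4 or more made up 30.4% of the 23. Among the 11281 nuclear peaks inside or within 50 kb of any protein-coding gene, 15.9% had 2 calls and 22.1% scored 4 or more, and 2.76% of the whole list scored 7 or more. All but 5 of the peaks lay outside the gene they were assigned to, and those 5 were inside Atf6 (3), Xbp1 and Ern1.

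**Figure D1:**
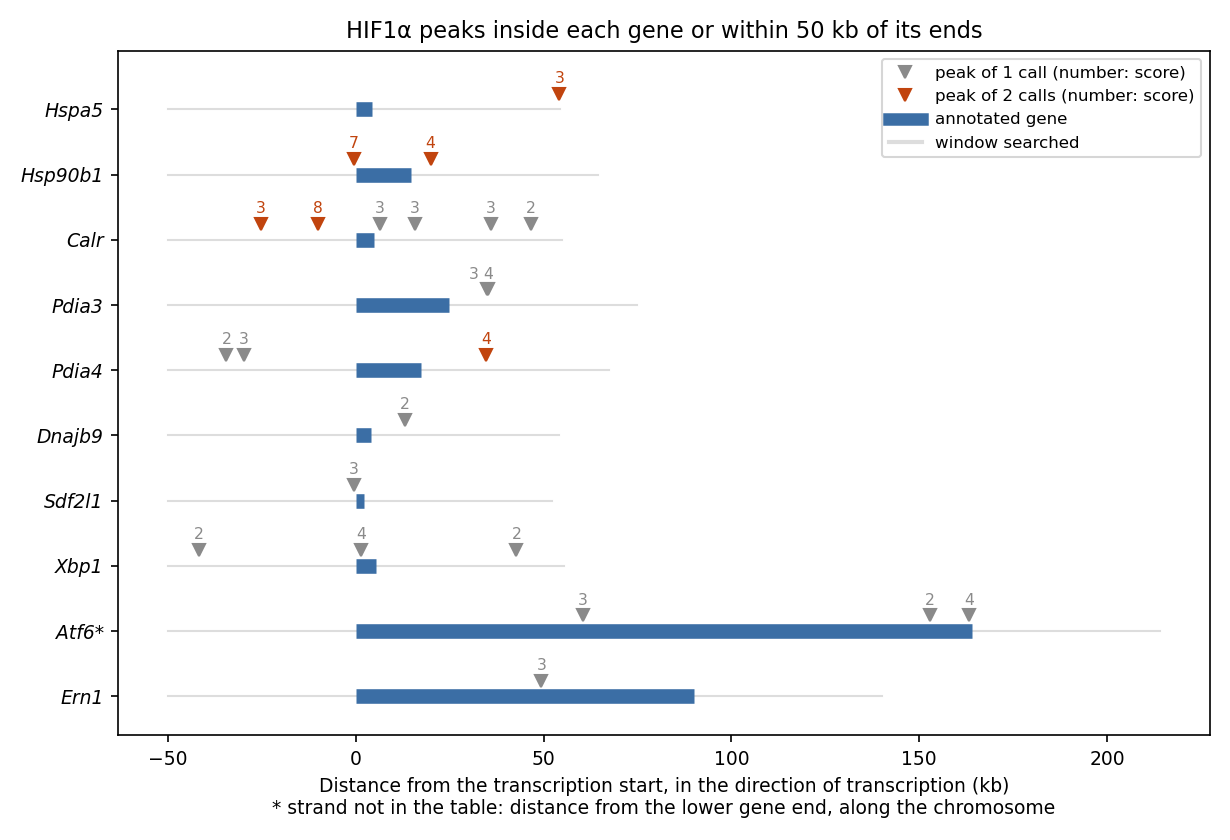
Peaks of the HIF1α list around each of the 10 genes. The horizontal axis is the distance from the transcription start in kb, in the direction of transcription (for Atf6, whose strand was not in the promoter table, from the lower gene end along the chromosome), bars are the annotated genes, thin lines the windows searched, triangles the peak centres, and the numbers the deposited scores. Peaks of 2 calls appear at Hspa5, Hsp90b1, Calr and Pdia4 only. Among all peaks of genes with a known start, the closest to a start are at Hsp90b1 (2 calls) and Sdf2l1 (1 call).

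The chaperone genes Hspa5 and Hsp90b1 differed in the distance of their peaks. Hspa5 (chromosome 2, 34772090 to 34776529), which encodes the Hsp70 chaperone BiP, had a single peak, scoring 3 from 2 calls, at the edge of the window. Its centre lay 49.8 kb from the gene, 52 bp from an end of Fbxw2, which encodes an F-box protein, and 18 bp from an end of the predicted gene Gm34653. The next peak, outside the window, was 57.5 kb from Hspa5, with a score of 2 from 1 call. Hspa5 was thus the gene of the list farthest from any peak, and 63.5% of protein-coding genes had a peak at least as close to one of their ends.

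Hsp90b1 (chromosome 10, 86690841 to 86705444), which encodes the Hsp90 chaperone GRP94, was the only one of the 10 genes with a peak of 2 calls within 5 kb. This peak scored 7 (chr10:86705777-86705914) and its centre lay 401 bp upstream of the transcription start, beyond the promoter shown above. The same centre was 34 bp inside the neighbouring gene Ttc41, which is annotated on the other strand from position 86705811. The transcription start listed for Ttc41 is at position 86712765, farther from the peak than the start of Hsp90b1. A peak scoring 7 or more within 5 kb of an end was found at 1.86% of protein-coding genes. A second peak, scoring 4 from 2 calls (chr10:86685414-86685555), lay 5.36 kb beyond the 3′ end, with no other protein-coding gene end closer than 14.5 kb. Both peaks of Hsp90b1 therefore came from 2 calls.

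Calr and Pdia3, which encode the lectin chaperone calreticulin and the disulfide isomerase ERp57 that works with it, had 8 peaks between them, all of them closer to other genes. Calr (chromosome 8, 84842088 to 84846931) had 6 peaks, and 1.29% of protein-coding genes had as many in their windows. Its window also held 7 other protein-coding genes. The nearest peak scored 3 from 1 call and lay 1490 bp beyond the 3′ end of Calr. The highest scored 8 from 2 calls and lay 10.0 kb upstream of Calr, 32 bp from the annotated start of Farsa, a subunit gene of phenylalanyl-tRNA synthetase. A further peak, scoring 3 from 2 calls, was 33 bp from an end of Syce2, a gene of the synaptonemal complex. The remaining 3 peaks scored 2 or 3 from 1 call and were closer to Nfix or Dand5. Pdia3 (chromosome 2, 121413902 to 121438687) had 2 peaks, scoring 3 and 4 and each from 1 call. They lay 10.1 and 10.4 kb beyond its 3′ end, and 390 and 125 bp from the start of Serf2.

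The sequence of a few of these peaks could be read, since they fall in promoter entries of the neighbours. The peak of score 8 and the peak of score 4 near Pdia3 are shown because they are among the highest scoring of their windows and because both hold the HIF core, in capitals. The first is cut where the annotated Farsa gene begins.
Peak between Calr and Farsa (chr8:84856877-84856968, plus strand): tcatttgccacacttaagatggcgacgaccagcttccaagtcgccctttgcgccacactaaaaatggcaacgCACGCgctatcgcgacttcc
Peak upstream of Serf2 (chr2:121449023-121449123, plus strand): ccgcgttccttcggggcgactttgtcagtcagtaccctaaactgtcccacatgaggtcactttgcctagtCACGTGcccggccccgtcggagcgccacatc
The Farsa peak held 1 core and the Serf2 peak held CACGTG, which counts as 2 cores. In the same window relative to the start, 25.1% of all promoter entries held a core in the case of Farsa and 18.4% in the case of Serf2. The Syce2 peak held 5 cores, in a window where 29.4% of entries held any. The peak assigned to Hspa5 held none, in a window where 20.1% of entries did.

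Pdia4 (chromosome 6, 47796141 to 47813512), which encodes the disulfide isomerase ERp72, had no peak within 5 kb. Its window held 3 peaks. One, scoring 4 from 2 calls (chr6:47778645-47778770) lay 17.4 kb beyond the 3′ end, and Pdia4 was the nearest protein-coding gene to it. The other peaks, of 1 call with scores of 3 and 2, lay inside Zfp398, a zinc finger gene, at 29.7 and 34.4 kb.

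The BiP partners had 1 peak each, both of 1 call. Sdf2l1 (chromosome 16, 17130138 to 17132383), whose product works with BiP and its J-domain partners, had a peak of score 3 with its centre 586 bp upstream of the transcription start (chr16:17132919-17133019). No end of another protein-coding gene was closer than 6.10 kb, so Sdf2l1 was the nearest gene to a peak close to its own start, though without a second call. Within 5 kb of an end, 19.3% of protein-coding genes had a peak of score 3 or more. Dnajb9 (chromosome 12, 44205897 to 44210068), which encodes the J-domain protein ERdj4, had a peak of score 2 at 8.86 kb beyond its 3′ end. It was the gene with no other protein-coding gene in its window, and 29.7% of protein-coding genes had a peak at least as close.

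Xbp1, Atf6 and Ern1 each carried a peak inside the gene body. All their peaks were of 1 call, as were 15300 of the 17289 peaks in the list. The share of all protein-coding genes with a peak inside the gene was not counted. Xbp1 (chromosome 11, 5520641 to 5525993) held a peak of score 4 at 1510 bp downstream of its transcription start (chr11:5522101-5522201), and its other peaks, both of score 2, lay 37.4 and 41.7 kb away. Atf6 (chromosome 1, 170704457 to 170868585) held 3 peaks, with scores of 4, 2 and 3 at 0.754, 11.4 and 60.5 kb from its nearest end. Ern1 (chromosome 11, 106397620 to 106487796) held a peak of score 3 at 40.7 kb from its nearest end, deep inside the gene. A score of 4 or more was reached by 8.22% of peaks of 1 call, and a peak of that score within 5 kb of an end was found at 10.6% of protein-coding genes. Atf6 and Ern1 are long genes of 164 and 90.2 kb, and the windows searched for them, 264 and 190 kb, were wider than the 102 to 125 kb of the other 8. The median length of a protein-coding gene was 17.2 kb. None of the peaks could be placed in an exon, an intron or a UTR with the annotation used.

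The peak of Atf6 nearest to an end of that gene overlaps the start of Gm9929, a long noncoding RNA gene on the plus strand at position 170867830. It held 1 HIF core, in a window where 22.1% of promoter entries held one, and the 30 bases around that core are shown because this is the only peak inside one of the 10 genes that the promoter table covers.
Atf6 peak (chr1:170867840-170867869, plus strand): aactatctcaccgCACGCgggaactgggat

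Counts of genes near a peak were set beside the same counts over all protein-coding genes. No test was run, because the genes were chosen with earlier results of these data known. All 10 genes had a peak inside or within 50 kb, against 64.8% of protein-coding genes, and 4 of 10 had one of 2 calls, against 21.4%. Within 5 kb of an end the count was 5 of 10 (Hsp90b1, Calr, Sdf2l1, Xbp1 and Atf6), against 24.0%. Within 1 kb it was 3 of 10 (Hsp90b1, Sdf2l1 and Atf6), against 16.2%. With peaks of 2 calls alone the count was 1 of 10 at 5 kb, against 7.72%, and 1 of 10 at 1 kb, against 5.54%. Hsp90b1 was that gene in both cases, and at these distances the share rests on it alone. Within 1 kb of a transcription start, 2 of the 9 genes with a start in the table had a peak, against 16.6%. Each gene makes 10% of a share over 10 genes, which is more than the differences seen for peaks of 2 calls at 5 kb and at 1 kb.

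**Figure D2:**
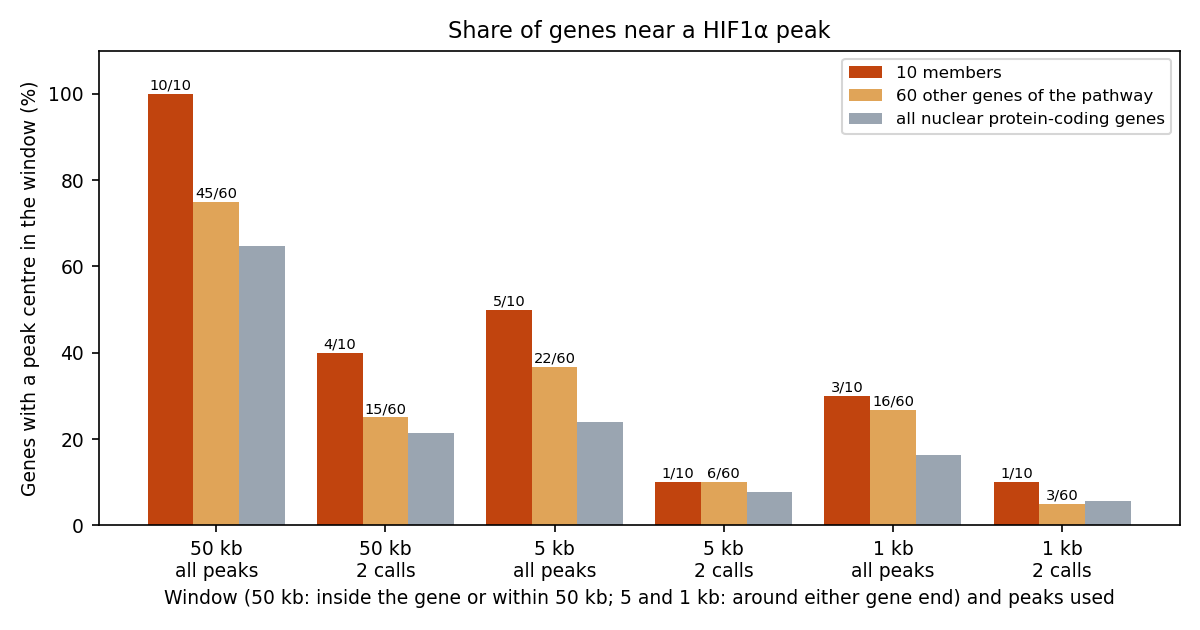
Share of genes with a peak centre in the window, in percent, for the 10 genes, the 60 other genes of the pathway and all 21779 nuclear protein-coding genes. The groups of bars are windows of 50, 5 and 1 kb with all peaks or with peaks of 2 calls, numbers above bars are counts of genes, and the bars of the 10 genes come down from 10 of 10 at 50 kb to 1 of 10 for peaks of 2 calls at 5 kb and 1 kb.

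Many of the peaks lay nearer to a neighbour than to the gene itself. For 14 of the 23 peaks another protein-coding gene was nearer or contained the centre, and for 9 the gene of the list was the nearest. Those 9 belonged to Hsp90b1, Pdia4, Dnajb9, Sdf2l1, Xbp1, Atf6 and Ern1. Of the 6 peaks of 2 calls, 4 were nearer to the annotated span of a neighbour, including both of the highest scores. The exceptions were the downstream peaks of Hsp90b1 and Pdia4. Measured from the listed transcription starts, the upstream peak of Hsp90b1 was nearer to Hsp90b1 than to Ttc41. Of the 14 peaks, 8 were at Calr and Pdia3, whose windows each held 7 other protein-coding genes. The same counts were not made for the windows of all protein-coding genes, so whether 14 of 23 or 4 of 6 is unusual is not known. Within 1 kb of an end of any protein-coding gene lay 10 of the 23 peaks (43.5%), against 29.3% of the 11281 nuclear peaks that lay inside or within 50 kb of any protein-coding gene. Of these 10, only 3 were within 1 kb of an end of the gene they were assigned to. Of the 3, 1, at Hsp90b1, was closer to an annotated end of Ttc41.

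**Figure D3:**
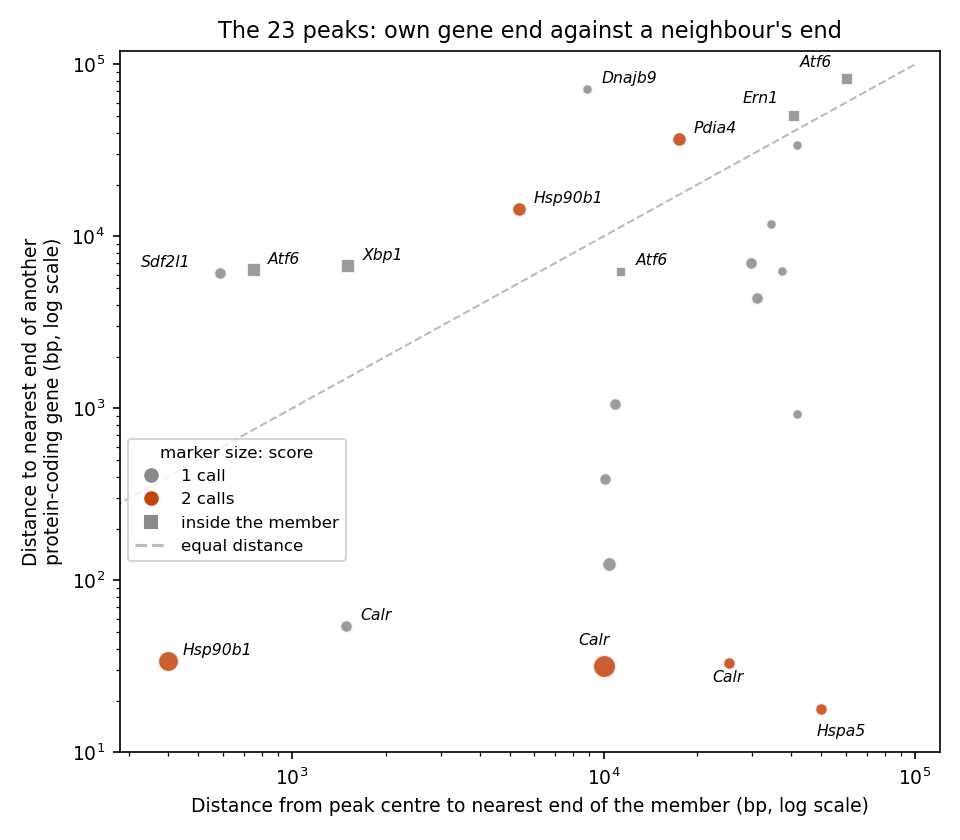
Distance from the centre of each of the 23 peaks to the nearest end of its own gene (horizontal, bp, log scale) and to the nearest end of another protein-coding gene (vertical, bp, log scale). Marker colour gives the calls, size the score and squares the peaks inside the gene; the 8 points above the dashed line of equal distance are nearer to an end of their own gene.

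The wider pathway was described with 60 further genes of ER folding, disulfide exchange, translocation, degradation and stress sensing, listed by their textbook roles, with earlier results of these data known. Within 5 kb of an end 22 of the 60 (36.7%) had a peak, against the 24.0% of all protein-coding genes, and 6 of 60 (10%) had one of 2 calls, against 7.72%. By role, the counts for any peak were 6 of 18 chaperone and folding genes, 2 of 9 disulfide exchange genes, 6 of 14 degradation genes, 3 of 6 translocon genes and 5 of 13 sensing and signalling genes. Peaks of 2 calls were near 3, 1, 1, 1 and 0 genes of these groups. In 12 of the 22 genes the highest score was 2 or 3.

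P4hb, the classical protein disulfide isomerase and also a subunit of collagen prolyl hydroxylase, had the highest score of these genes within 5 kb of an end. Its peak scored 10 from 2 calls and lay 199 bp upstream of the start (chr11:120573394-120573510), with P4hb as the nearest gene. In the whole list, 1.20% of peaks scored 10 or more. Creld2, a secreted ER stress factor, had a peak scoring 7 from 2 calls at 253 bp upstream of its start, which was 75 bp from Alg12. Sec61b, a subunit gene of the translocation channel, had one scoring 3 from 2 calls at 689 bp upstream, which was 395 bp from Alg2. The remaining 3 of the 6 genes with a peak of 2 calls within 5 kb had it closer to a neighbour, as did Creld2 and Sec61b. The peak of score 6 counted for Syvn1, a ubiquitin ligase of ER-associated degradation, was 1 bp from an end of Fau, and that of score 5 for Hyou1, a large Hsp70 relative, was 408 bp from Slc37a4. The peak of Canx (calnexin, score 4, 2 calls) was 553 bp from Maml1. Syvn1 also had a peak scoring 3 from 1 call at 225 bp upstream of its start, and was the nearest gene to it.

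The sensor PERK completes the comparison with Atf6 and Ern1. Eif2ak3, its gene, had a peak scoring 4 from 1 call at 378 bp from its end, upstream of the start, and was the nearest gene to it. Each of the 3 sensor genes had its nearest peak from 1 call, at 378 bp for Eif2ak3, 754 bp for Atf6 and 40.7 kb for Ern1. This is the usual case, since only 15.9% of the nuclear peaks inside or within 50 kb of any protein-coding gene had 2 calls. Peaks of 1 call with the same score of 4 were also found at the translocon gene Sec63 (84 bp), at Tmbim6 (127 bp), which encodes an ER membrane protein that restrains cell death, and at Herpud1 (915 bp) and Derl2 (2836 bp), both of ER-associated degradation. The peak of Derl2 was 71 bp from Dhx33.

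**Figure D4:**
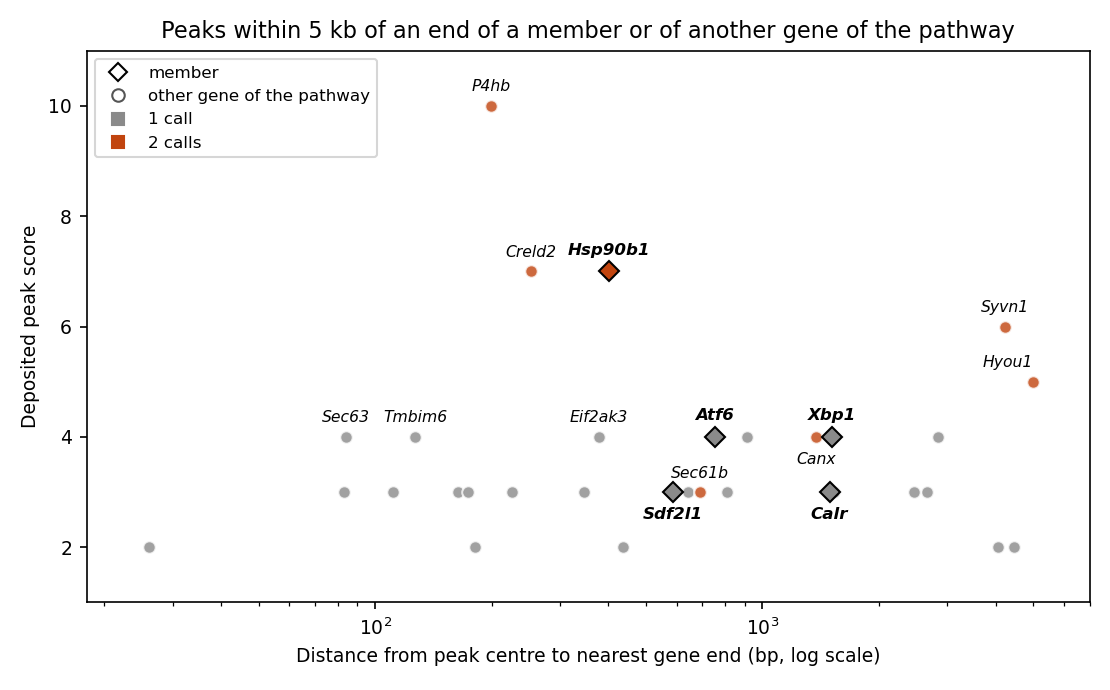
Distance from peak centre to the nearest gene end (horizontal, bp, log scale) and deposited score (vertical) of every peak within 5 kb of an end of the 10 genes (diamonds) or of the 60 other genes of the pathway (circles), with peaks of 2 calls in orange. P4hb at a score of 10 and Creld2 and Hsp90b1 at 7 stand above the rest, which score 6 or less.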

How the data were processed

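HIF1α ChIP-seq was made from E12.5 mouse hearts (2 pulldowns, 1 input). Per the submitters' processing notes, the tools were Bowtie2 and HOMER and the build mm10, and per the file headers the authors merged peaks of both pulldowns, each against the input, into 1 list. The score of a peak is the deposited whole number, and what it is relative to is not given in the sources used here, nor are the calling threshold, the merging rule and the tool versions. Coordinates are 1-based.

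Gene ends came from the RefSeq table of GRCm38.p6 (genes starting below 3 Mb outside chromosome Y left out), and strands, starts and sequences from its promoter table. All 10 symbols and all 60 of the pathway matched, and 9 of the 10 had a promoter. Windows of 50, 5 and 1 kb were counted with Python 3.11.15 and pandas 2.3.3, and the window counts were tested on simulated data. The members and lists were chosen with earlier results of these data known. All 10 members are named. Of the pathway genes, those with a peak of 2 calls within 1 kb and those with the 5 highest scores within 5 kb, ties included, are named. Alternatives were the window, the score, the calls, the nearest gene, overlap, and joined peaks. Protein sequences were not used here.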

Additional observations from a re-analysis of the deposited data

How the results depend on the processing

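Of 20 alternatives, 13 left a count within 1.5 times its value. The number of the 10 genes with a peak inside or within 50 kb fell from 10 to 4 with peaks of 2 calls. The number within 5 kb of an end fell from 5 to 3 with a window of 1 kb, to 3 with peaks for which the gene was the nearest protein-coding gene, and to 3 around the transcription start alone. Over all protein-coding genes the shares fell as well, from 64.8% to 21.4% with peaks of 2 calls at 50 kb. With the window of 1 kb in place of 5 kb they fell from 24.0% to 16.2%. The single gene near a peak of 2 calls, Hsp90b1, was lost (0 genes) when only peaks nearest to the gene counted, since the centre of its peak lies inside Ttc41. The counts for the nearest gene and for the start alone within 5 kb were not made over all protein-coding genes, so no share stands beside them. The 23 peaks became 15 in windows of 25 kb, and the 22 pathway genes became 6 with peaks of 2 calls. No paired analysis was possible because the list has no values per pulldown, and for the same reason neither replicate could be left out. The read depth is unknown, so absence of a peak is not evidence that HIF1α was absent.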

Other observations

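Of the 3 pathway genes with a peak of 2 calls within 1 kb of an end (P4hb, Creld2 and Sec61b), Creld2 and Sec61b shared that peak with a neighbour that also serves the ER. The peak of Creld2 (score 7) lay between the starts of Creld2 and Alg12, and the peak of Sec61b (score 3) lay 395 bp from an end of Alg2 and inside that gene. Alg12 and Alg2 encode mannosyltransferases that build the precursor sugar for N-linked glycosylation in the ER. Both pairs were singled out after their values were seen, and no test was run on them.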
